A study of Homo sapiens with 2 samples.

Results

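The RB pathway and G1 regulators described here are 10 genes, RB1, RBL1, RBL2, CDKN2A, CDKN2C, CDK4, CDK6, CCND1, CCNE1 and E2F1, measured in SBC-3 cells. They were taken as the probes, outside the control spots, whose RefSeq accession carries the name of one of these genes, and this gave 12 probes with 48 spots out of 42402 probes of the array. SBC-3 is an adherent small-cell lung cancer (SCLC) cell line that the study describes as established from a bone metastasis. The cells were transfected with #1 siHOTAIR, an siRNA against the long noncoding RNA HOTAIR, or with siGFP, the control siRNA, whose target is green fluorescent protein, so that both groups carried an siRNA. Each condition was hybridized as Cy3-labelled RNA to 1 Agilent array, both arrays lay on the same slide and were scanned together, and how long after transfection the RNA for the arrays was taken is not given in the sources used here. There was no replicate of either condition, so no P-value was computed, and array, culture and siRNA cannot be told apart in any difference below.

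The RB pathway decides whether a cell leaves G1 and starts to copy its DNA. Cyclin D with CDK4 or CDK6, and then cyclin E with CDK2, phosphorylate the pocket proteins encoded by RB1, RBL1 and RBL2, which otherwise hold E2F transcription factors in check, whereas the INK4 proteins encoded by CDKN2A and CDKN2C block CDK4 and CDK6. SCLC is known for loss of RB1 function in nearly every tumor, and in lung cancer high CDKN2A is typically found together with loss of RB1.

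E2F factors bind short sequences rich in G and C, and genes of this pathway include some that E2F factors themselves are known to control, RBL1, E2F1 and E2F2 among them. RefSeq promoters of GRCh38.p14, from 250 bases before to 50 bases after each start site, were searched on both strands for TTTCCCGC, TTTCGCGC, TTTGCCGC and TTTGGCGC, spellings of the E2F site that can overlap each other across the strands. Of 35116 promoters, 3.31% held a match, and of all genes 3.99% had such a promoter. Promoters were listed for 9 of the 10 genes, all but CCND1, and 2 of the 9 genes had a match, RBL1 and E2F1, which is 2 of the 14 promoters listed for the 9. CCNE1, also a known E2F target, had no match. Among the other E2F and DP factors it was 3 of 7 genes, E2F2, E2F3 and TFDP1. Stretches of 30 bases around the matches are shown for RBL1, E2F1 and E2F2. E2F2 was picked because it had the lowest ratio among the other E2F genes. The stretches let a reader set the letters beside the differences given further on. Capitals mark the matches, and each stretch is written 5′ to 3′ on the strand of the gene.
RBL1, minus strand, chr20:37096000-37096029: gcagatTTTCGCGCgcTTTGGCGCaggtgg
E2F1, minus strand, chr20:33686393-33686422: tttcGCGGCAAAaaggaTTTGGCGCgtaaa
E2F2, minus strand, chr1:23531257-23531286: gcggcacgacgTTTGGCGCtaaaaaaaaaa
In RBL1 the matches began 26 and 16 bases before the start site, and in E2F1 they began 33 bases before it, on the opposite strand, and 20 bases before it. E2F2 had 1 match, beginning 42 bases before the start site. A match describes the letters of the promoter and not a bound site.

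Each of the 10 genes had a probe well above background in both conditions, as had 12026 of the 19061 named genes. By probe this held for 11 of the 12, and for 50.5% of all probes. None of the 10 reached a 2-fold change in either direction, the size used in the study's methods. Among all probes compared, which are those well above background on at least 1 array, 7.4% differed at least 2-fold, 3.3% being higher and 4.1% lower. Below that size the genes differed in direction. RB1, RBL1, RBL2 and CCND1 were lower after #1 siHOTAIR, by between 0.45 and 0.77 on the log2 scale, whereas CDKN2C, E2F1 and CCNE1 were higher, by between 0.23 and 0.34. CDK4, CDK6 and CDKN2A lay within 0.13 of no change. Ratios are log2 of the processed signal on the #1 siHOTAIR array over that on the siGFP array, after each array was set against its own 75th percentile, and the mean of the spots of a probe was used. The error after each ratio is the spread of repeated spots at that signal, 1 SD of the mean, and it leaves out any difference between cultures. The scanner software gives a wider error for a single pair of spots, 0.20 on the log2 scale for 8 of the 11 probes that were well above background and up to 0.24 for RBL1.

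**Figure D1:**
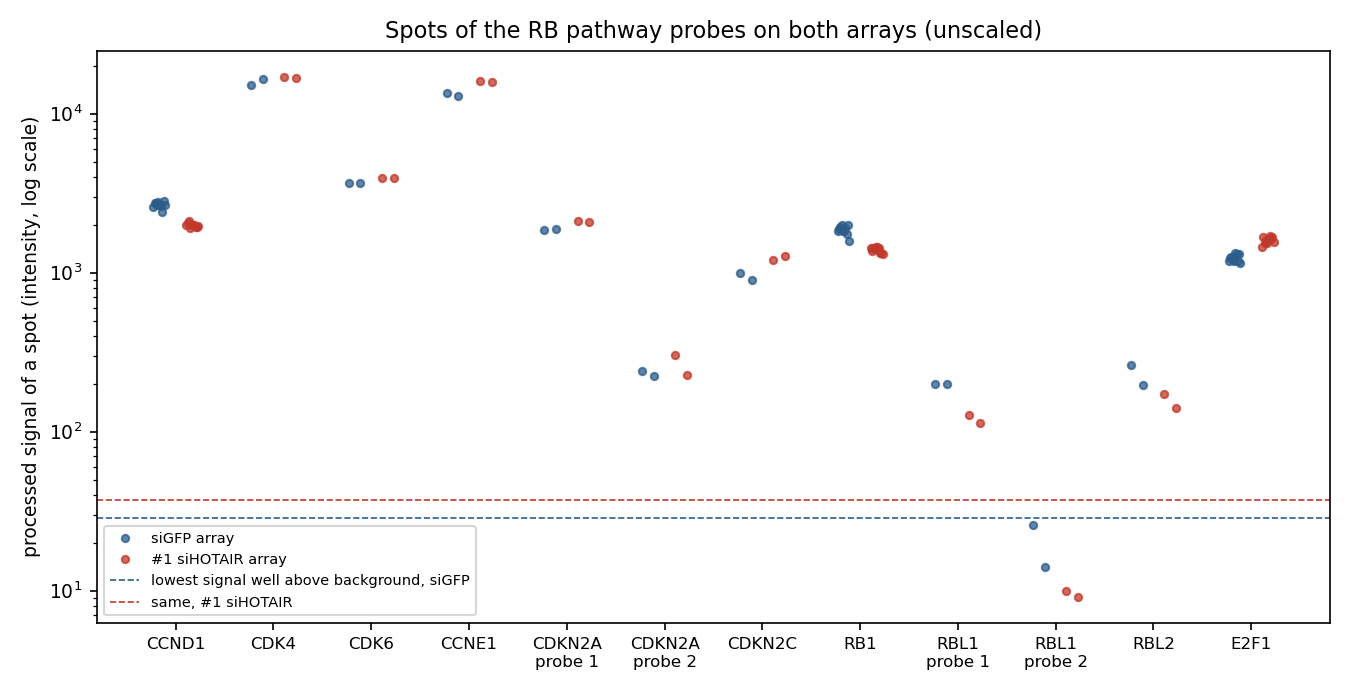
Processed signal (intensity, log scale, not scaled between arrays) of every spot of the 12 probes on the siGFP array (blue) and the #1 siHOTAIR array (red), with dashed lines at the lowest signal that the software called well above background on each array. All spots of RB1, RBL1 probe 1, RBL2 and CCND1 read lower on the #1 siHOTAIR array, and RBL1 probe 2 lies below both lines.

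The pocket proteins were read first, since they are the targets of the G1 kinases. RB1, the retinoblastoma gene (NM_000321), was read by 1 probe with 10 spots. The spots ran from 1307 to 1461 with a median of 1419 after #1 siHOTAIR, and from 1571 to 1987 with a median of 1854 after siGFP. The lowest control spot was thus brighter than the highest spot after #1 siHOTAIR, and all 10 spots read lower. The log2 ratio was -0.45 ± 0.03, or 26.8% lower, and single spots gave between -0.63 and -0.31. Of the 21428 probes well above background on both arrays, 9.33% had a ratio as low or lower. The probe reads RNA, and neither the RB protein nor a mutation of the gene was measured.

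RBL1 and RBL2 encode p107 and p130, relatives of RB that act in repressor complexes with E2F factors such as E2F4. The RBL1 probe for NM_002895 had 2 spots, with signals of 128 and 113 after #1 siHOTAIR against 201 and 198 after siGFP. Both spots were lower, and the log2 ratio of -0.77 ± 0.14 was the lowest of the 10 genes, 41.5% below the control. At a threshold of 1.5-fold it was the 1 probe of the 11 that passed, where 18.2% of all probes compared passed in either direction, 9.74% downward and 8.5% upward. A second RBL1 probe, for NM_183404, had signals of 9.92 and 9.17 against 25.8 and 14.2, which did not pass the background filter in either condition, and it is given no fold.

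RBL2 (NM_005611) had 2 spots, with signals of 173 and 142 after #1 siHOTAIR against 262 and 197 after siGFP. These also did not overlap. The log2 ratio was -0.58 ± 0.14 and fell just short of the 1.5-fold threshold, and 5.92% of the probes well above background on both arrays were as low or lower. The error comes from other probes at that signal, whose spots had SDs of 0.14 after #1 siHOTAIR and 0.15 after siGFP. The spots of RBL2 itself spread more widely, with SDs of 0.21 and 0.29. The 3 pocket protein genes were thus all lower, where 6207 of the 13014 named genes compared were below 0. RBL1 and RBL2 were read from dim spots, for which the error is larger than for RB1. Without background correction the ratios came together, at -0.44 for RBL1, -0.42 for RBL2 and -0.41 for RB1.

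Among the cyclins, CCND1 encodes cyclin D1, the partner through which growth signals reach CDK4 and CDK6. Its probe (NM_053056) had 10 spots, from 1911 to 2104 with a median of 1996 after #1 siHOTAIR and from 2424 to 2833 with a median of 2673 after siGFP. The spots did not overlap, and all 10 were lower. The log2 ratio was -0.47 ± 0.03, 27.8% lower, and differed from that of RB1 by 0.02, within the error of 0.04.

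CCNE1 encodes cyclin E1, which drives CDK2 late in G1 and is itself a well-known E2F target. Its spots (NM_001238) read 16115 and 15783 after #1 siHOTAIR and 13439 and 12886 after siGFP. Both spots were higher, with a log2 ratio of 0.23 ± 0.05, or 17.4% higher, a difference close to the error the software gives for 1 pair of spots. CCNE1 and CCND1 therefore went in opposite directions on the same pair of arrays. Their ratios differed by 0.70 ± 0.06 on the log2 scale, and by 0.62 to 0.76 over 11 alternative settings. Settings that shift a whole array by 1 amount, change the filter or keep outlier spots could not move this difference.

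The kinases CDK4 and CDK6, which pair with D-type cyclins, showed the smallest differences. CDK4 (NM_000075) had signals of 17057 and 16853 after #1 siHOTAIR against 15094 and 16439 after siGFP, and its log2 ratio was 0.06 ± 0.05. After scaling to the 75th percentile the spots gave 0.13 and -0.01 and overlapped between the arrays, whereas the unscaled signals did not overlap. CDK6 (NM_001259) had signals of 3932 and 3910 against 3666 and 3687, with a log2 ratio of 0.05 ± 0.05. Its spots gave 0.05 and 0.04, and their mean was within the error.

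Of the INK4 inhibitors, CDKN2A encodes p16, and from another first exon p14ARF, which does not act on CDK4. Both CDKN2A probes carry the accession NM_058197, and which of these products they read was not worked out here. The brighter probe had signals of 2110 and 2073 after #1 siHOTAIR against 1858 and 1870 after siGFP, a log2 ratio of 0.12 ± 0.06. The other had signals of 305 and 228 against 241 and 225. After scaling its spots gave 0.29 and -0.03, so that their mean of 0.13 ± 0.14 was within the error. CDKN2A was therefore well above background at every spot in both conditions, without a difference larger than the measurement allows on the second probe.

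CDKN2C encodes p18, the INK4 protein that also binds CDK4 and CDK6. Its spots (NM_078626) read 1202 and 1276 after #1 siHOTAIR and 994 and 903 after siGFP, without overlap. The log2 ratio was 0.34 ± 0.06, or 26.6% higher, the highest of the 10 genes, and 17.2% of the probes well above background on both arrays were as high or higher. Set against CCND1, which promotes the same kinases, its ratio was 0.81 ± 0.07 higher on the log2 scale.

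E2F1 encodes an activating E2F factor that RB binds. Its probe (NM_005225) had 10 spots, from 1460 to 1704 with a median of 1615 after #1 siHOTAIR and from 1145 to 1331 with a median of 1216 after siGFP. The spots did not overlap, and all 10 were higher. The log2 ratio was 0.33 ± 0.03, or 25.7% higher, and single spots gave between 0.25 and 0.41. Of the probes well above background on both arrays, 18.0% had a ratio as high or higher. Between E2F1 and RB1 the ratios differed by 0.78 ± 0.04, and by 0.71 to 0.78 over the 11 alternatives. A shift common to all probes of 1 array cancels in such a difference. The settings that only shift an array could therefore not move it, and neither could those of the filter and the outlier spots. From E2F1 to RBL1 the difference was 1.10 ± 0.15, with 0.74 to 1.11 over the alternatives, and from E2F1 to RBL2 it was 0.91 ± 0.15, with 0.72 to 0.92. These pairs, like those of CCNE1 and CDKN2C with CCND1, were chosen by hand. How often any pair of probes differs this much was not counted. RBL1 and E2F1, whose promoters are among those printed above, lay on opposite sides of no change. Whether the letters of the promoters bear on this was not tested.

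**Figure D2:**
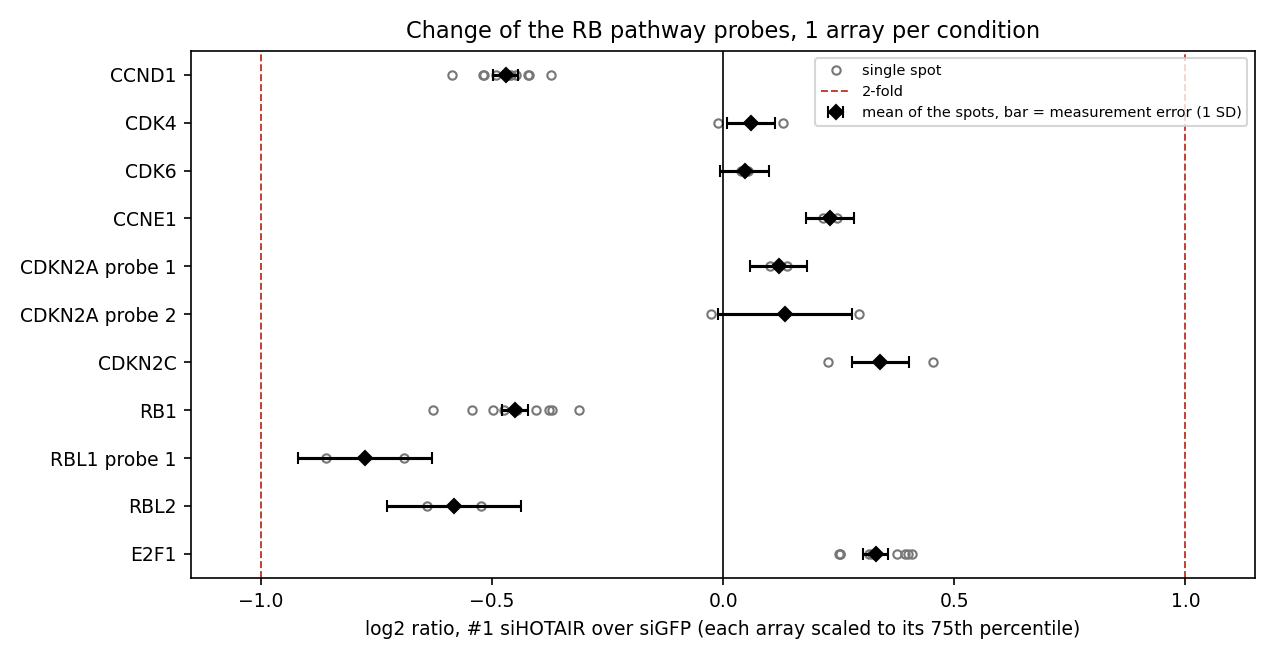
Log2 ratio of #1 siHOTAIR over siGFP for the 11 probes well above background, with single spots (open circles), the mean of the spots (diamonds) and the measurement error (bars, 1 SD of the mean). Every probe lies inside the dashed lines at 2-fold, the pocket protein genes and CCND1 lie below 0, and E2F1 and CDKN2C have the highest ratios.

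Spots that do not overlap between the arrays after scaling are common here and are to be read against that background. Of the 3 genes with 10 spots, RB1, CCND1 and E2F1, all were without overlap, where 39.6% of 404 such probes were, 16.3% being higher and 23.3% lower. Of the 7 genes with 2 spots, 6 were without overlap, where 72.1% of 4639 such probes were, 40.3% being higher and 31.8% lower. The exception was CDK4. Repeated spots bear on the ratio of these 2 arrays, and the spread between cultures was not measured.

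The place of the spots on the array was checked as well, because 19 of the 48 spots lay in the upper rows, which held 37.5% of the spots that are not controls. In RB1 the 4 spots in these rows gave -0.48 and the 6 others -0.43. For CCND1 the same split gave -0.46 and -0.48, and for E2F1 it gave 0.32 and 0.34. Both spots of RBL1 probe 1 and of RBL2 lay outside these rows. With the upper rows left out, the sign turned for CDK4, to -0.01, and for the second CDKN2A probe, to -0.03.

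**Figure D3:**
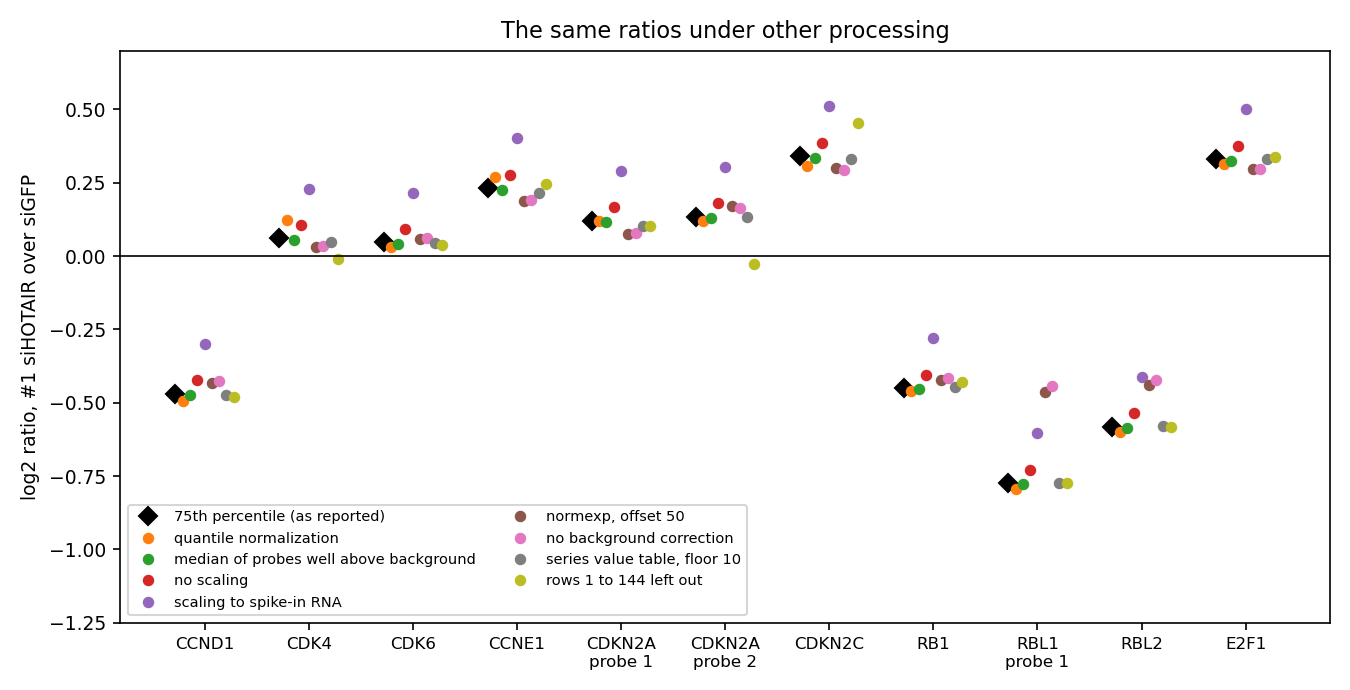
Log2 ratio of #1 siHOTAIR over siGFP for the same 11 probes as reported (black diamonds) and under 8 other settings (circles). RB1, RBL1, RBL2 and CCND1 stay below 0 and CDKN2C, E2F1 and CCNE1 above 0 in all of them, scaling to the spike-in RNA lifts every ratio, and the setting with the upper rows left out (olive) is the one that turns CDK4 and CDKN2A probe 2.

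The wider pathway was read from lists of 66 further genes, by the brightest probe of each gene, with 65 matched to a probe by accession (all but KDM5A) and 64 compared. Only CDKN2B passed 2-fold upward and none passed downward, against 6.15% of the 13014 named genes compared (2.74% higher and 3.41% lower), whose median log2 ratio was 0.02. CDKN2B encodes p15, an INK4 inhibitor beside CDKN2A in the genome. Its spot in row 52 read 109 after #1 siHOTAIR and 6.39 after siGFP, while the spot in row 168 read 7.75 and 6.19, dim in both conditions. For the dim values, in that order, the software error was about as large as the signal, at 6.41, 7.77 and 5.95. The difference thus rested on 1 spot of 2, no lower bound above 1-fold could be given, and it was gone with the upper rows left out.

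The remaining inhibitors split in direction. CDKN1B, which encodes p27, an inhibitor of cyclin E with CDK2, had a log2 ratio of 0.46 ± 0.09 on its brightest probe and of 0.44 ± 0.03 on a probe with 10 spots, with mean signals of 1235 after #1 siHOTAIR and 880 after siGFP on the latter. CDKN2D, which encodes the INK4 protein p19, had signals of 1267 and 912 and a ratio of 0.43 ± 0.06. CDKN1A, which encodes p21, had signals of 256 and 337 and a ratio of -0.44 ± 0.08, and CDKN1C, which encodes p57, had signals of 2644 and 3572 and a ratio of -0.48 ± 0.06. The median of the 5 inhibitors was 0.43 with CDKN2B at its own level, and -0.01 over the 4 that passed the filter on both arrays. With the upper rows left out, CDKN2B no longer passed the filter. The median of the inhibitors still compared was then -0.48, equal to the ratio of CDKN1C. Which of the other inhibitors were still compared was not listed, so this value cannot be laid to the loss of CDKN2B alone. These medians cover different genes, so their spread does not show that the ratios turned.

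E2F and DP factors, of which 9 were compared, had a median log2 ratio of 0.04. E2F2, an activating E2F like E2F1, was lower, with signals of 857 and 864 after #1 siHOTAIR against 1496 and 1460 after siGFP. Its log2 ratio was -0.83 ± 0.06, which passed 1.5-fold and lay within the error of that of RBL1. E2F7, an atypical repressor E2F, was the highest of the list at 0.40 ± 0.06, although its second probe gave 0.07 ± 0.20. E2F3 had a ratio of -0.11 ± 0.05, and TFDP1, the main dimer partner of the E2F factors, one of 0.19 ± 0.05 on its brightest probe. The repressor E2F4 gave -0.02 ± 0.06, E2F5 0.10 ± 0.06, E2F6 0.01 ± 0.05, E2F8 0.04 ± 0.20 and TFDP2 0.12 ± 0.08. The E2F6 value is that of its brightest probe, and dimmer probes gave 0.05 ± 0.09 and -0.21 ± 0.11. E2F1 and E2F2 thus differed in opposite directions. Both promoters hold the TTTGGCGC spelling, and whether promoter letters bear on the ratios was not tested.

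The other G1/S cyclins, CDKs and their activators, 9 compared of 10, had a median of -0.06 and none past 1.5-fold, where 16.8% of all named genes compared passed in either direction. CCND2, encoding cyclin D2, was the gene left out, with signals of 8.20 and 6.22 that were too dim in both conditions. CCND3 had a log2 ratio of -0.09 ± 0.06, CDK2 one of -0.06 ± 0.07, CCNA2, encoding cyclin A2 of S phase, one of -0.01 ± 0.03, and CCNE2 one of -0.04 ± 0.06 on the brighter of its probes. A dimmer CCNE2 probe with 1 spot read 312 after #1 siHOTAIR and 229 after siGFP, a ratio of 0.40 ± 0.20, so the probes of CCNE2 differed. The list ran from -0.20 for CKS1B, a subunit of cyclin-CDK complexes, to 0.06 for CDC25A, the phosphatase that activates CDK2.

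Target genes of E2F in S phase were read as a readout of the pathway. All 20 were well above background on both arrays, none passed 1.5-fold, 7 were above and 13 below 0, and their median was -0.10. Of all named genes compared, 6807 were above and 6207 below 0. With the upper rows left out, the median of the E2F targets still compared was -0.02. CDC45, a helicase factor of replication, was the lowest at -0.44 ± 0.05, and ORC1, which marks replication origins, the highest at 0.40 ± 0.08. Promoters were listed for 17 of these 20 genes, and 11 of the 17 held a match to the E2F spellings, or 64.7%.

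Of the MuvB core and its partners, which pocket proteins join to repress cell-cycle genes, 7 were compared with a median of -0.03, from -0.14 for LIN37 to 0.35 for FOXM1, a transcription factor of the G2 phase. The 7 RB-bound chromatin factors had a median of -0.05, from -0.28 for HDAC2 to 0.27 for SUV39H1. A second, dim HDAC2 probe gave 0.54 ± 0.14, so that the probes of this histone deacetylase disagreed. The 7 genes of ubiquitin ligases of G1/S and their regulators had a median of 0.06, from -0.31 for SKP1 to 0.25 for FBXW7, the receptor that marks cyclin E for degradation. Scaling to the spike-in RNA raised all ratios by the same amount, and the median of all named genes went from 0.02 to 0.19. The list medians below 0 became 0.11 for the cyclins and CDKs, 0.07 for the E2F targets, 0.14 for MuvB and 0.12 for the chromatin factors, which by construction lie as far below the median of all genes as before. Without scaling, the median of all named genes was 0.06 and that of MuvB 0.02. With the median of the probes of each gene in place of the brightest probe, the MuvB list had a median of 0.02 and the chromatin factors one of 0.13. The median of the ubiquitin ligases still compared was -0.03 with the upper rows left out.

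**Figure D4:**
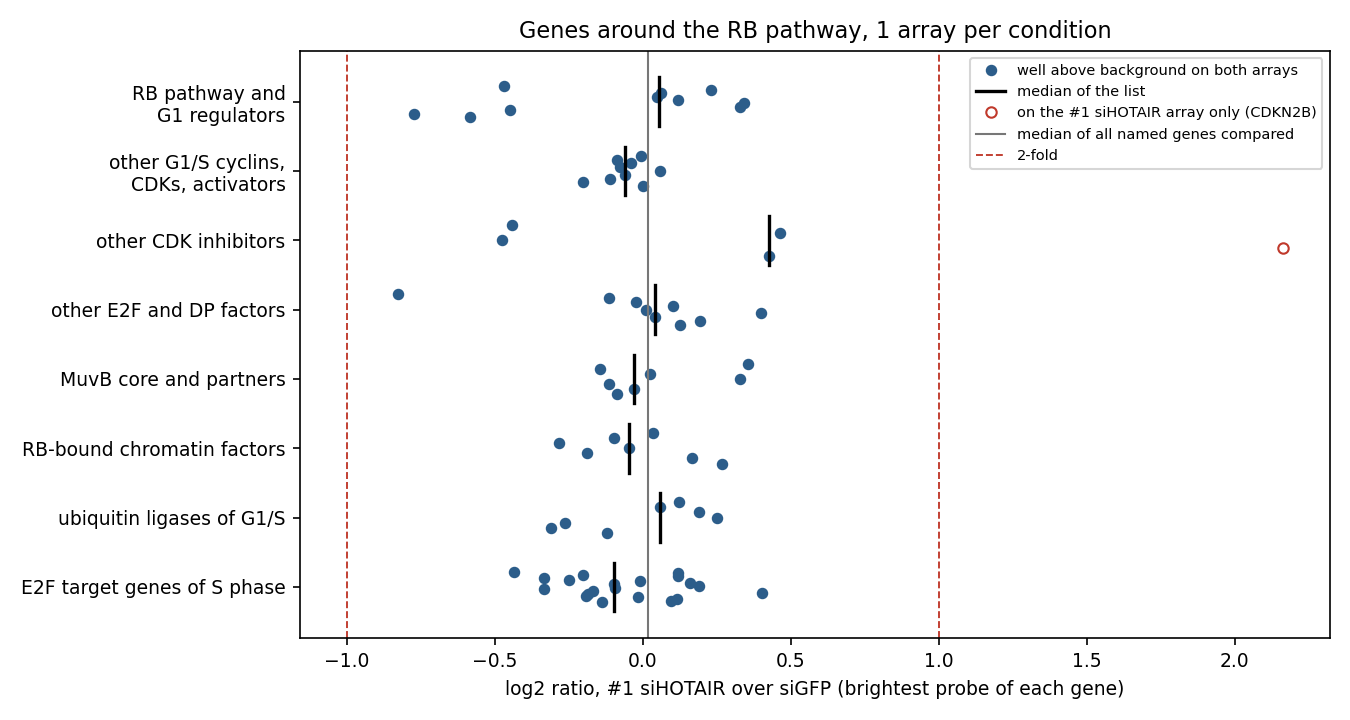
Log2 ratio of #1 siHOTAIR over siGFP by the brightest probe of each gene in the 10 genes (top) and 7 lists around them, with the median of each list (black bars), that of all named genes compared (grey line) and 2-fold (dashed). CDKN2B, well above background on 1 spot of the #1 siHOTAIR array, is the one point past 2-fold, and E2F2 and RBL1 lie lowest.

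Some facts of the arrays and cells bear on these values. HOTAIR itself, read from 1 spot, gave 108 after #1 siHOTAIR and 244 after siGFP, and its log2 ratio was -1.22 ± 0.20. The probes of ACTB gave -0.05 and -0.02, and GAPDH read 60585 and 58649 before scaling. None of the 48 spots was marked as an outlier. Of 7 neuroendocrine markers of SCLC, NEUROD1 and DLL3 were well above background on both arrays, CHGA (at least 2.44-fold higher) and 1 spot of NCAM1 on the #1 siHOTAIR array only, and INSM1, SYP and GRP on neither. NEUROD1, a lineage factor of one SCLC subtype, had signals of 213 and 372 and a log2 ratio of -0.85 ± 0.08. YAP1 and REST, which mark SCLC without neuroendocrine features, passed the filter on both arrays, and POU2F3 on neither. The epithelial keratins KRT8 and KRT18 also passed it on both by their brighter probes, that of KRT18 with 1 spot. A dimmer probe of each passed on the siGFP array only. EPCAM passed at 1 spot on the siGFP array, and CDH1 on neither. Markers of other cell types passed that filter in 2 of 5 for fibroblasts (COL1A1 and COL1A2), 2 of 4 for leukocytes (PTPRC on 1 of its 4 probes, and CD14) and 1 of 3 for endothelium (CDH5), of which COL1A1, at 0.96 ± 0.08, lay closest to 2-fold. Their part in the results was not tested.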

How the data were processed

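Gene expression was measured in 1 #1 siHOTAIR and 1 siGFP array. The authors labelled the RNA with Cy3 and read the scans with Agilent Feature Extraction 10.10.1.1. Its processed signal, as deposited, is an intensity from which background has been subtracted, without scaling between arrays. The flags for well above background and outliers are other values deposited with it. The series value table holds an intensity equal to the background-subtracted signal (largest difference 0).

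From there, log2 signals were centred on the 75th percentile of the array, control spots excepted. Outlier spots were dropped, and repeated spots were averaged. A probe was well above background when at least 50% of its spots were. Accessions were matched without versions to RefSeq names of GRCh38.p14, used for names only (58.5% of probes, 96.8% of those with NM_ accessions). The brightest probe stood for a gene in lists. Measurement error was taken from the 10-spot probes in 6 bins of signal. Named were the 10 genes, HOTAIR, ACTB and GAPDH, the highest and lowest gene of each list, genes past 2-fold, and all inhibitors, G1/S cyclins, CDK2 and E2F and DP factors. A probe above background on 1 array only was given as a bound where the bound exceeded 1-fold, against the lowest signal well above background on the other.

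The genes and lists were chosen with earlier results of these data known. One list and a marker gene are not reported here. The file has no mean signal, so the median signal of a spot was used for normexp and for the setting without background correction. With 1 array per condition no test was possible, and the number of arrays limits the precision. Python 3.11.15, pandas 2.3.3, R 4.3.3 and limma 3.58.1 were used.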

Additional observations from a re-analysis of the deposited data

How the results depend on the processing

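Over 11 alternatives, 9 of the 11 probes of the RB pathway genes kept their sign, CDK4 and the second CDKN2A probe turning with the upper rows left out. The filter and outlier settings could not move these ratios, since every spot of the 11 probes passed the filter and none was an outlier. Leaving out the upper rows could not move RBL1 or RBL2, which had no spot there. The number of these probes past 2-fold stayed at 0, except without a filter, where 1 dim RBL1 probe counted, and at 1.5-fold, where 1 did. Their median log2 ratio was 0.05 and moved to 0.22 with scaling to the spike-in RNA, which lifted the median of all probes well above background on both arrays from 0.03 to 0.20. In the other lists the number of genes past 2-fold was 1, and 0 with all spots well above background on both arrays, with normexp, without background correction and with the upper rows left out. Of all probes, 795 were higher and 989 lower by 2-fold. These counts were 313 and 317 with all spots well above background, 173 and 154 without background correction, 227 and 187 with normexp, 358 and 549 with the upper rows left out, 1933 and 1866 without a filter, 2050 and 2348 at 1.5-fold and 377 and 411 at 3-fold. The filter and the rows left out also change which probes are compared, so not all of these counts are out of the same number of probes. What moved the counts was not tested. No paired analysis was possible because each condition had 1 array. Dim signals limit RBL1 and RBL2, whose ratios came closest to 0 without background correction for RBL1 (-0.44) and with scaling to the spike-in RNA for RBL2 (-0.41).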
